A study of Piaractus mesopotamicus with 9 samples.

Results

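The miR-23, miR-24 and miR-27 miRNAs were examined by small RNA sequencing in myotubes of the pacu (Piaractus mesopotamicus), the multinucleated muscle cells formed when cultured myoblasts fuse. Members were all entries of the normalized table whose name, without its species prefix, starts with miR-23, miR-24 or miR-27. They were 123 of the 1769 entries in that table. Where entries had the same count in each of the 9 libraries they were taken as 1 profile, which gave 116 distinct profiles of 953: 32 of miR-23, 28 of miR-24 and 56 of miR-27. The raw table held 157 members among 3579 entries, and the 34 members outside the normalized table had a mean under 10 counts. Of these, 26 had no count in any library, no entry exceeded 11 counts, and 27 were named as a 5p arm.

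Cells isolated from fast-twitch muscle of juvenile pacu were cultured for 8 days and compared in 3 groups of 3 libraries. The AA group had 12 h without amino acids and then 24 h with amino acids, supplied as DMEM medium. The IGF1 group had the same 12 h and then 24 h with recombinant insulin-like growth factor 1 in amino acid-free medium. The CTR group had 36 h of amino acid-free medium, so every group had been deprived of amino acids. The amino acid-free medium was Earle's salts with vitamins and glucose, so in AA the amino acids came with another base medium. The paper calls such differences between media minor, and their effects cannot be told apart from those of amino acids. Sample characteristics give 12 h for the AA and IGF1 treatments and 36 h for CTR. These equal each group's hours in amino acid-free medium without IGF1, and the labels do not settle what they count. The methods describe 3 independent cultures, each from pooled fish, without saying which culture gave which library, so p-values measure the spread between libraries.

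In mammals, miR-23, miR-27 and miR-24 are processed from shared primary transcripts, in an a cluster and a b cluster, and each hairpin can give a 5p and a 3p mature arm. In mouse muscle, miR-23a is known to repress atrogin-1 (MAFbx) and MuRF1, the ubiquitin ligases that mark muscle proteins for degradation during atrophy. Mouse miR-27a and miR-27b repress myostatin, a secreted inhibitor of muscle growth, and miR-27b also represses Pax3, a transcription factor of muscle precursor cells. Mouse miR-24 promotes myoblast differentiation and is repressed by TGF-beta. These libraries hold small RNAs, and the mRNA data of the same study were not analysed here. The 3 comparisons ask whether the level of these miRNAs differed after DMEM with its amino acids, or a growth factor, was given to starved myotubes.

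Reads were counted against mature miRNAs of 13 teleost species, so the same reads can appear under several entries, and species letters do not always mark the same paralog. When member entries of 1 number were grouped with the most abundant entry whose count they matched within 5% or 5 counts in every library, they fell into 47 near-identical sets, of which 27 held 1 entry and the largest held 11. This grouping was chosen after seeing the data. In 6 sets entries with different letters shared their counts, such as the set led by tni-miR-27e, which holds letters a and e. Zebrafish (dre) entries summed to 7627252 to 12908097 counts per library. AA replicate 1 stood apart in its composition, with a TMM factor of 1.26 against 0.863 to 1.06 in the other 8 libraries. The muscle-specific miRNAs were present in every library. They took 0.194 to 0.276% of zebrafish counts in AA, 0.0757 to 0.0851% in IGF1 and 0.0439 to 0.0683% in CTR. Markers of fibroblasts or smooth muscle took 5.95 to 7.97%, more than the muscle-specific miRNAs in every library. Those of endothelium took 0.0130 to 0.0242%, and those of blood, liver and neural cells each at most 0.00218%, with counts in 5 of the 7 blood entries. Levels are those of whole cultures, and the part that came from myotubes was not tested. In every group replicate 1 was the highest for fibroblast or smooth muscle markers, at 7.97% against 6.18 and 6.34% in AA, 7.77% against 5.95 and 6.21% in IGF1, and 6.66% against 6.26 and 6.35% in CTR. It was also the highest for endothelial markers, at 0.0242% in AA, 0.0202% in IGF1 and 0.0162% in CTR.

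The family was abundant in every group. Its 17 zebrafish entries took 4.02, 3.76 and 3.45% of zebrafish counts in AA, 3.46, 3.56 and 3.06% in IGF1, and 3.06, 3.65 and 3.57% in CTR. All 3 groups overlapped. The share differed by 0.32 percentage points (SE 0.25) between AA and CTR (exact permutation test, two-sided, p = 0.4), by -0.07 (SE 0.24, exact p = 0.6) between IGF1 and CTR, and by 0.39 (SE 0.22, exact p = 0.3) between AA and IGF1. With 3 libraries a group the smallest p this test can give is 0.1. Paired by replicate number, AA exceeded IGF1 at every number, by 0.57, 0.20 and 0.39 points (paired SE 0.10). The exact sign-flip permutation p was 0.25, the smallest that 3 pairs allow. These shares carry no correction for composition. After TMM scaling, the members' median log2 fold change between AA and IGF1 was -0.06, the same as in all profiles. In bulk libraries, fewer cells of a type and less RNA per cell cannot be told apart.

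Most of these counts belonged to miR-27, which took 2.66 ± 0.188% of zebrafish counts in AA, 2.39 ± 0.171% in IGF1 and 2.41 ± 0.289% in CTR (SD, n = 3). Its 3p arm of letter b, dre-miR-27b-3p, alone held 2.22 ± 0.179% in AA, 2.00 ± 0.146% in IGF1 and 2.02 ± 0.234% in CTR. The miR-23 entries took 0.867 ± 0.0673% in AA, 0.786 ± 0.0636% in IGF1 and 0.820 ± 0.0421% in CTR. The miR-24 entries were the least abundant, at 0.217 ± 0.0370% in AA, 0.185 ± 0.0291% in IGF1 and 0.196 ± 0.0237% in CTR.

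Among the 14 zebrafish profiles, the order of levels in CTR ran from dre-miR-27b-3p over dre-miR-23b-3p and dre-miR-23a-3p down to dre-miR-23a-5p. The CTR libraries of neighbours in this order overlapped for dre-miR-27d with dre-miR-23b and dre-miR-24, and for dre-miR-24b-3p with dre-miR-27a-3p and dre-miR-27b-5p. All 4 zebrafish pairs with both arms measured had more counts in the 3p arm. In percent of both arms, the 5p arm took 0.0104 to 0.0560% for miR-23a, 0.312 to 0.551% for miR-23b and 1.72 to 2.31% for miR-27b, against 3.63 to 15.2% for miR-24b.

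**Figure D1:**
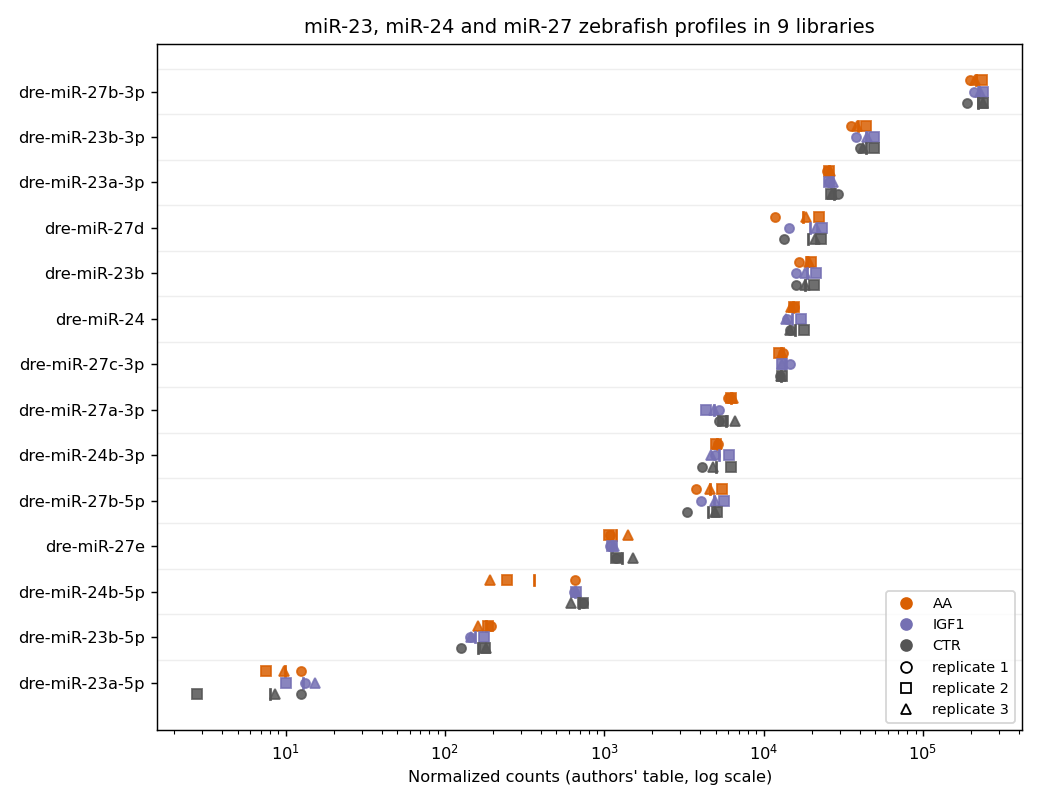
Normalized counts (log axis) of the 14 zebrafish profiles in each library, with AA above IGF1 and CTR in each row, symbols for the replicate number and a vertical tick at the group mean. The groups lie together in nearly every row, and dre-miR-24b-5p is spread in AA, with 658 normalized counts in replicate 1 and 244 and 192 in replicates 2 and 3.

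No member passed the test in any comparison when the group alone was in the model. The test was edgeR's quasi-likelihood test with Benjamini-Hochberg adjustment over all entries, and a call needed an adjusted p no higher than 0.05 together with a log2 fold change of 0.55 or more in either direction (1.46-fold). Of all 953 profiles, this called 2.31% between AA and CTR, 0.210% between IGF1 and CTR and 2.10% between AA and IGF1. DESeq2 also called 0 of 116 members in each comparison, where it called 2.83%, 1.15% and 2.94% of all profiles for AA against CTR, IGF1 against CTR and AA against IGF1. At an unadjusted edgeR p of at most 0.05, the members numbered 2 between AA and CTR (6.30% of all profiles), 3 between IGF1 and CTR (7.66%) and 7 between AA and IGF1 (9.55%), of which 3 were higher in AA. The 3 between IGF1 and CTR, and the 3 higher in AA than in IGF1, were the same near-identical set of miR-27a.

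With the replicate number added as a block, 2 of 116 members were called lower in AA than in CTR, and the same 2 lower in AA than in IGF1. Both were 5p arms of miR-24. The block called 3.88% of all profiles between AA and CTR and 4.83% between AA and IGF1, so the members' share of 1.72% lay below the background in both. Between IGF1 and CTR it called 0 members and 1.57% of all profiles.

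The members as a whole were centred where all profiles were. Their median log2 fold change was -0.05 between AA and CTR (all profiles -0.04), 0.03 between IGF1 and CTR (all profiles 0.02) and -0.06 between AA and IGF1 (all profiles -0.06). In 11 members the normalized counts of AA and CTR did not overlap, with 2 higher in AA, against 11.9% of all profiles. The same held for 16 members between IGF1 and CTR, with 5 higher in IGF1 (10.8% of all profiles), and for 10 between AA and IGF1, with 5 higher in AA (12.2%). These are tallies of profiles, not of separate measurements. Between AA and CTR they came from 3 near-identical sets, with 9 of the 11 in the miR-23a set led by nbr-miR-23a. Between IGF1 and CTR they also came from 3 sets, of which gmo-miR-27c-3p led all 5 that were higher and tni-miR-27e led 9. The 10 between AA and IGF1 came from 7 sets. The 89 members with a mean of at least 1000 counts spanned log2 fold changes of -0.21 to 0.11 between AA and CTR, -0.26 to 0.30 between IGF1 and CTR and -0.35 to 0.37 between AA and IGF1. These comparisons share libraries, so their values are not independent of each other.

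**Figure D2:**
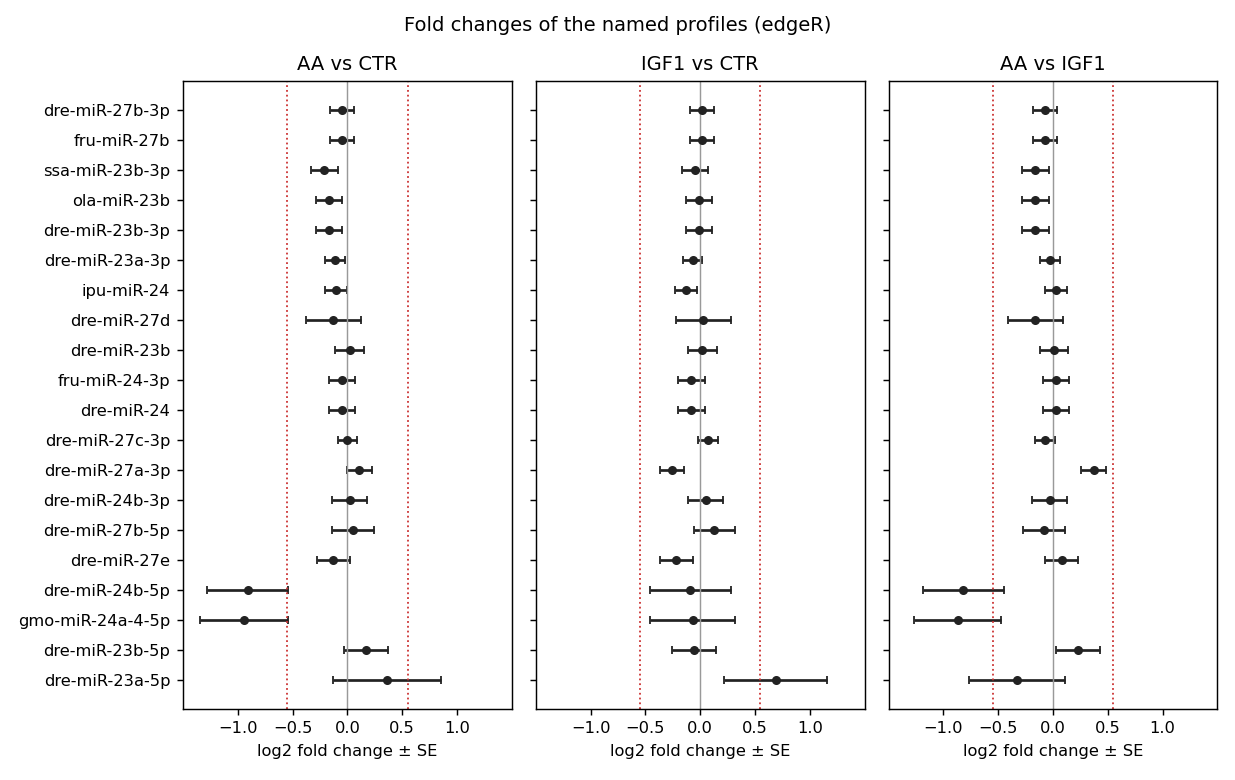
Log2 fold change from edgeR (points) and the standard error derived from its F statistic (bars) for the 20 named profiles. The comparisons are AA vs CTR, IGF1 vs CTR and AA vs IGF1. Profiles are ordered by their level in CTR, with dotted lines at the fold threshold of 0.55 in either direction. Most points lie near 0, while dre-miR-24b-5p and gmo-miR-24a-4-5p lie at -0.91 and -0.94 between AA and CTR with long bars, and dre-miR-27a-3p lies at 0.37 between AA and IGF1.

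The miR-27 letters included the most abundant member of all. dre-miR-27b-3p, the letter whose mouse counterpart acts on myostatin and Pax3, had 196807, 234733 and 212214 normalized counts in AA, 209387, 238678 and 229130 in IGF1, and 188687, 237273 and 238074 in CTR. Replicate 1 was the lowest library of each group, and the groups overlapped fully. Its log2 fold change was -0.05 (SE 0.11) between AA and CTR, 0.02 (SE 0.11) between IGF1 and CTR and -0.07 (SE 0.11) between AA and IGF1. fru-miR-27b, the most abundant miR-27 profile with no arm in its name, was near-identical to it.

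dre-miR-27a-3p, of the letter that in mouse also acts on myostatin, had 6004, 6244 and 6447 normalized counts in AA, 5266, 4379 and 4903 in IGF1, and 5219, 5525 and 6608 in CTR. Every AA library was above every IGF1 library, while CTR overlapped both. It averaged 6231 ± 222 normalized counts in AA, 4849 ± 446 in IGF1 and 5784 ± 730 in CTR (SD, n = 3). Its log2 fold change between AA and IGF1 was 0.37 (SE 0.11), with an unadjusted p of 0.00783 and an edgeR adjusted p of 0.159. With the replicate block the adjusted p was 0.0223, but the change was below the fold threshold and so was not called. In the same fit, profiles of other miR-27 letters passed the adjusted p in the opposite direction, also below the fold threshold. The value ranged from 0.31 to 0.59 over its 30 alternatives, with adjusted p of 0.00446 to 0.528. Against CTR it was 0.11 (SE 0.11) in AA and -0.26 (SE 0.11, edgeR adjusted p = 0.745) in IGF1. Of the 12 profiles of letter a, 11 had a value above 0 between AA and IGF1, with a median of 0.18, but most are not separate measurements. ipu-miR-27a and ssa-miR-27a-3p repeat the counts of dre-miR-27a-3p nearly exactly. The near-identical sets led by mze-miR-27a and oni-miR-27a hold 4 and 2 more, and their leaders averaged 825 and 813 normalized counts in AA. gmo-miR-27a-3p belongs to the set led by tni-miR-27e, and ssa-miR-27a-2-5p had a mean of only 14.1 counts.

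No letter of miR-27 gave a call in any comparison, with or without the block. dre-miR-27d had 11856, 22241 and 18566 normalized counts in AA, 14412, 23105 and 21195 in IGF1, and 13409, 22858 and 21006 in CTR. Replicate 1 was far below the others in each group, and the log2 fold changes were -0.13, 0.03 and -0.16 (SE 0.25 each) for AA against CTR, IGF1 against CTR and AA against IGF1. ccr-miR-27d, picked after its values were known, had 3893, 6088 and 5649 in AA, 4608, 7785 and 6705 in IGF1, and 4175, 6450 and 6288 in CTR, lowest in AA at each number. Its log2 fold change between AA and IGF1 with the block was -0.28 (edgeR adjusted p = 0.0367). gmo-miR-27b-3p, picked likewise, had 6963, 7926 and 7741 in AA, 7758, 11282 and 9826 in IGF1, and 6530, 8431 and 8409 in CTR, and the blocked value between AA and IGF1 was -0.33 (edgeR adjusted p = 0.0292). dre-miR-27c-3p varied little, with 13149, 12439 and 13127 in AA, 14681, 13050 and 13036 in IGF1, and 12747, 13052 and 12837 in CTR. Its log2 fold changes were 0.00, 0.07 and -0.07 (SE 0.09 each) for AA against CTR, IGF1 against CTR and AA against IGF1.

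dre-miR-27e had 1083, 1068 and 1402 normalized counts in AA, 1088, 1120 and 1155 in IGF1, and 1192, 1190 and 1513 in CTR. Every IGF1 library was below every CTR library, yet the log2 fold change of -0.22 (SE 0.15) had an edgeR adjusted p of 0.953. The 5p arm of letter b, dre-miR-27b-5p, had 3788, 5450 and 4611 in AA, 4023, 5648 and 4951 in IGF1, and 3306, 5116 and 4942 in CTR, again lowest in replicate 1. Over letters a, b, c, d and e, the median log2 fold change between AA and IGF1 was 0.18 (12 profiles), -0.14 (13), -0.04 (10), -0.33 (12) and 0.08 (9). Between AA and CTR the same medians were 0.16, -0.05, 0.00, -0.14 and -0.13, and between IGF1 and CTR they were -0.00, 0.09, 0.07, 0.20 and -0.22. The order of letters is given as a description, since near-identical entries are not separate measurements and letters share counts across species.

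Outside the named profiles, the highest miR-27 value between AA and CTR and the lowest between AA and IGF1 belonged to profiles picked after their values were known. gmo-miR-27d-5p had 18.4, 20.3 and 17.3 normalized counts in AA, 14.8, 6.04 and 15.3 in IGF1, and 15.4, 8.29 and 10.1 in CTR. All AA libraries were above those of the other groups, with a log2 fold change of 0.71 (SE 0.38, edgeR adjusted p = 0.621) against CTR at a mean of 14.4 counts. ola-miR-27d-3p had 189, 181 and 231 in AA, 214.06, 341 and 293 in IGF1, and 184, 209 and 272 in CTR, and its log2 fold change between AA and IGF1 was -0.49 (SE 0.22, edgeR adjusted p = 0.398).

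For miR-23, whose a form acts on the atrophy ligases in mouse, neither the a nor the b letter gave a call. dre-miR-23a-3p had 24975, 25911 and 25951 normalized counts in AA, 25794, 25891 and 27351 in IGF1, and 29354, 26623 and 26709 in CTR. The AA libraries were all below the CTR libraries, by a narrow margin. Its log2 fold change was -0.11 (SE 0.09, edgeR adjusted p = 0.775) between AA and CTR, -0.07 (SE 0.09) between IGF1 and CTR and -0.03 (SE 0.09) between AA and IGF1. Without composition factors the value between AA and CTR was 0.09.

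dre-miR-23b-3p had 35290, 43763 and 38372 normalized counts in AA, 38066, 49138 and 44356 in IGF1, and 40463, 49156 and 42213 in CTR. At each replicate number AA was the lowest of the groups, while the groups overlapped. The log2 fold change was -0.17 (SE 0.12, edgeR adjusted p = 0.775) between AA and CTR and -0.16 (SE 0.12, edgeR adjusted p = 0.632) between AA and IGF1, and without composition factors these were 0.02 and 0.07. ola-miR-23b, the highest miR-23 profile with no arm in its name, gave the same log2 fold changes.

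The most abundant miR-23 profile, ssa-miR-23b-3p, had 47402, 60958 and 50904 normalized counts in AA, 52727, 64866 and 60359 in IGF1, and 58138, 66991 and 58470 in CTR. Its log2 fold change between AA and CTR was -0.21 (SE 0.12), with an edgeR adjusted p of 0.672, or 0.0517 with the replicate block. dre-miR-23b, a separate zebrafish entry with no arm in its name, had 16691, 19938 and 19323 in AA, 16083, 21476 and 18226 in IGF1, and 16042, 20662 and 18173 in CTR, and its values in the 3 comparisons were 0.02, 0.02 and 0.01 (SE 0.13 each). These entries of letter b thus spread from -0.21 to 0.02 between AA and CTR.

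The 5p arms of miR-23 were scarce. dre-miR-23b-5p had 196, 187 and 160 normalized counts in AA, 142.97, 175 and 146 in IGF1, and 127, 178 and 180 in CTR, and all groups overlapped. dre-miR-23a-5p had 12.5, 7.50 and 9.75 in AA, 13.3, 10.1 and 15.3 in IGF1, and 12.5, 2.76 and 8.64 in CTR. At a mean of 10.6 counts the counting error is large, and its log2 fold change between IGF1 and CTR was 0.69 (SE 0.47). The 14 profiles of letter a had a median of -0.11 between AA and CTR and the 16 of letter b had 0.01, while between IGF1 and CTR the medians were -0.07 and 0.10. Letters c and d, with 1 profile each, were low: oni-miR-23d averaged 60.6 normalized counts in AA, 84.3 in IGF1 and 81.3 in CTR, and abu-miR-23c averaged 29.9, 18.7 and 23.6 in the same groups, with 4.71 in IGF1 replicate 3. Both were named after their values were known.

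In miR-24 the zebrafish 3p profile and the one with no arm lay near 0, and the largest values were in 5p arms. dre-miR-24, which carries no arm in its name, had 15544, 15454 and 14805 normalized counts in AA, 14046, 17117 and 13750 in IGF1, and 14657, 17833 and 14721 in CTR. Its log2 fold changes were -0.05, -0.08 and 0.03 (SE 0.12 each) for AA against CTR, IGF1 against CTR and AA against IGF1. fru-miR-24-3p, the highest miR-24 profile named 3p, and ipu-miR-24, the highest with no arm, lay within 0.13 of 0 in every comparison. dre-miR-24b-3p had 5161, 5053 and 5089 in AA, 4957, 6045 and 4697 in IGF1, and 4114, 6224 and 4783 in CTR, with values of 0.02, 0.05 and -0.03 (SE 0.16 each).

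dre-miR-24b-5p, the other arm of the same hairpin name, had 658, 244 and 192 normalized counts in AA, 645, 662 and 666 in IGF1, and 738, 733 and 615 in CTR. AA replicates 2 and 3 were far below all other libraries, whereas AA replicate 1 lay within the range of IGF1 and CTR, so AA overlapped both groups. The raw counts were 895, 228 and 177 in AA, 825, 658 and 565 in IGF1, and 768, 796 and 427 in CTR. The mean was 365 ± 255 normalized counts in AA, 657 ± 11.4 in IGF1 and 695 ± 69.8 in CTR (SD, n = 3).

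The log2 fold change of dre-miR-24b-5p was -0.91 (SE 0.37) between AA and CTR and -0.82 (SE 0.37) between AA and IGF1, with edgeR adjusted p of 0.390 and 0.418, and -0.09 (SE 0.37, adjusted p = 0.969) between IGF1 and CTR. With the replicate block the first was -1.04 (SE 0.29, adjusted p = 0.0388) and the second -0.97 (SE 0.29, adjusted p = 0.0455), and both were called. DESeq2 called neither, with an adjusted p of 0.142 and 0.202 with the group alone, and of 0.0957 and 0.106 with the block. AA replicate 1 was the AA library within the range of the other groups, so leaving it out had to widen the difference. Without it the values were -1.65 (edgeR adjusted p = 9.01e-05) and -1.57 (adjusted p = 0.00027), which is not support for a change. Without AA replicate 2 the value between AA and CTR was -0.68 (adjusted p = 0.496), and without AA replicate 3 it was -0.60 (adjusted p = 0.824). Over 31 alternatives it was called in 7 between AA and CTR and in 5 between AA and IGF1. Of the variance of its log2 normalized counts, group took 57.4% and replicate number 16.3%. How far the blocked calls rest on the pairing of libraries was not tested.

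gmo-miR-24a-4-5p, a profile that also holds ola-miR-24b-5p and both ssa-miR-24a-3-5p and ssa-miR-24b-5p, had 565, 194 and 149.5 normalized counts in AA, 560.2, 574 and 566 in IGF1, and 619, 639 and 515 in CTR. Its pattern over libraries was that of dre-miR-24b-5p, at 0.780 to 0.872 of its level in every library, and so it is not a separate observation. The log2 fold change was -0.94 (SE 0.40, edgeR adjusted p = 0.421) between AA and CTR and -0.87 (SE 0.40, adjusted p = 0.421) between AA and IGF1. With the block, it was -1.08 (adjusted p = 0.0423) and -1.03 (adjusted p = 0.0455).

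Not every 5p arm of miR-24 had this pattern. ssa-miR-24a-4-5p, chosen after its values were seen, had 445, 496 and 499.5 normalized counts in AA, 427, 471 and 507 in IGF1, and 479, 457 and 502 in CTR. These groups overlapped, with log2 fold changes of -0.00, -0.04 and 0.04 (SE 0.13 each) for AA against CTR, IGF1 against CTR and AA against IGF1. The ratio of dre-miR-24b-5p to ssa-miR-24a-4-5p was 1.48, 0.492 and 0.384 in AA, 1.51, 1.41 and 1.31 in IGF1, and 1.54, 1.60 and 1.22 in CTR. Of 751 profiles with a mean of at least 100 normalized counts, 2 had AA replicates 2 and 3 both under 0.5 of AA replicate 1, namely dre-miR-24b-5p and gmo-miR-24a-4-5p. This criterion was set after their values were seen.

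**Figure D3:**
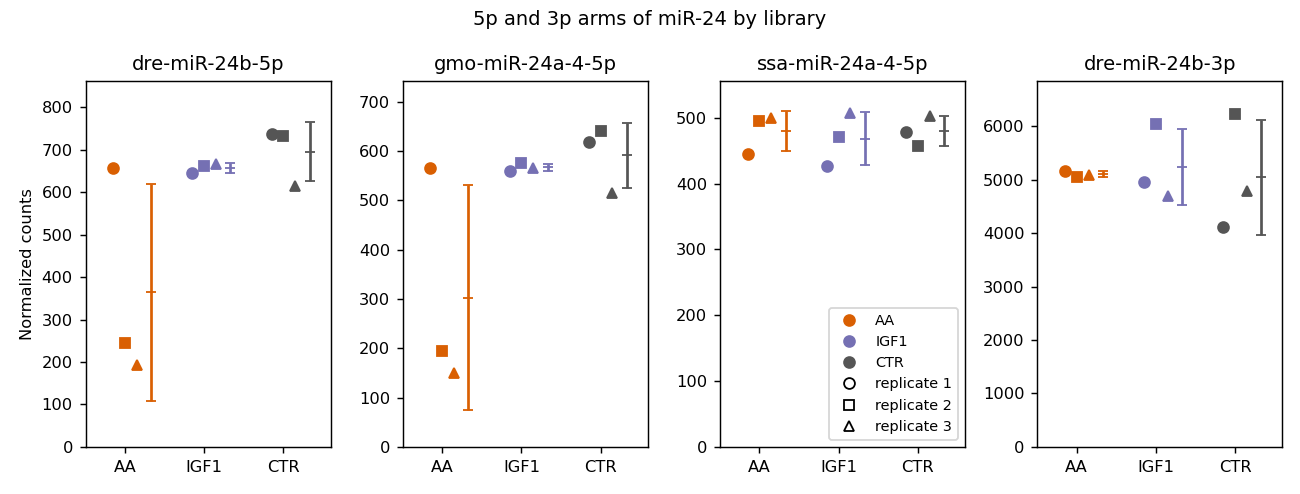
Normalized counts by library of 4 miR-24 profiles (dre-miR-24b-5p, gmo-miR-24a-4-5p, ssa-miR-24a-4-5p and dre-miR-24b-3p) in AA, IGF1 and CTR, with symbols for the replicate number and the mean ± SD (n = 3) beside each group. In the panels of dre-miR-24b-5p and gmo-miR-24a-4-5p, AA replicates 2 and 3 lie below all other libraries, while all groups overlap in the other panels.

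The 3p to 5p ratio removes any scaling factor of a library. On the log2 scale it was 2.97, 4.37 and 4.72 for miR-24b in AA, 2.94, 3.19 and 2.82 in IGF1, and 2.48, 3.08 and 2.96 in CTR. AA replicate 1 lay within the range of the other groups, while AA replicates 2 and 3 were above it. The difference in log2 ratio was 1.18 (SE 0.57, exact permutation p = 0.2) between AA and CTR and 1.04 (SE 0.55, exact permutation p = 0.2) between AA and IGF1. Both had an adjusted p of 0.4 over the 12 arm tests. Among the other pairs the smallest p was in miR-23b, where the log2 ratio averaged 7.75 ± 0.22 in AA, 8.14 ± 0.09 in IGF1 and 8.09 ± 0.22 in CTR. It differed by -0.39 (SE 0.14) between AA and IGF1, with an exact permutation p of 0.1, the smallest possible, and an adjusted p of 0.4. For miR-27b the log2 ratio stayed within 5.40 to 5.83 in all 9 libraries. Paired by replicate number, miR-24b was above CTR in AA at every number, by 0.49, 1.28 and 1.76, and above IGF1 by 0.03, 1.18 and 1.91. The miR-23b ratio was below IGF1 in AA at every number, by a mean of -0.39 (paired SE 0.09). Ratios of miR-27b were below CTR at every number in both AA (mean -0.10, paired SE 0.02) and IGF1 (mean -0.11, paired SE 0.03). The miR-23a ratio had 1 sign at every number in all 3 comparisons. Its 5p arm had only 3 to 17 raw counts per library, so counting error is large, and the comparisons share libraries. Each of these paired results has an exact sign-flip permutation p of 0.25, the smallest that 3 pairs allow.

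Replicate number accounted for more of the members' variance than group did. Of the variance of log2 normalized counts over the 9 libraries, group took a median of 23.4% and replicate number 53.9% in the members, against 25.2% and 49.3% in all profiles. Each factor takes part of the variance even without an effect, and no such baseline was computed, so these shares are a description. The number's share exceeded the group's in 77 of 116 members (66.4%) and in 64.1% of all profiles. The letters differed in this, as a description: replicate number took a median of 71.3% in miR-27b and 59.6% in miR-23b, against 12.7% in miR-27a and 4.4997% in miR-23a. In all 13 miR-27b profiles and in 14 of the 16 miR-23b profiles, replicate 1 was the lowest library of each group, and in 0 of the 14 miR-23a and 0 of the 12 miR-27a profiles. The same held in 24.7% of all profiles, and in 36.3% of those with a mean of at least 1000 counts. Many of these profiles are near-identical and not separate measurements. The set led by abu-miR-27b holds 7 miR-27b profiles, and the set led by nbr-miR-23a holds 9 of miR-23a. dre-miR-27d had 94.1% of its variance between replicate numbers and 4.60% between groups. dre-miR-27a-3p had 12.4% between numbers and 66.7% between groups. What the replicate numbers mark is not given in the labels. The fibroblast or smooth muscle and endothelial markers, as shares of zebrafish counts, were highest in replicate 1 of every group. The miRNA levels above are normalized counts, which is another scale. As a share, dre-miR-27b-3p took 2.39, 2.25 and 2.03% in AA, 2.08, 2.09 and 1.83% in IGF1, and 1.75, 2.13 and 2.17% in CTR. On that scale replicate 1 was its lowest library only in CTR, and the same held for dre-miR-23b-3p. dre-miR-27d was lowest in replicate 1 of every group on both scales. The part of these markers in the levels of miR-27b, miR-23b and miR-27d was not tested.

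**Figure D4:**
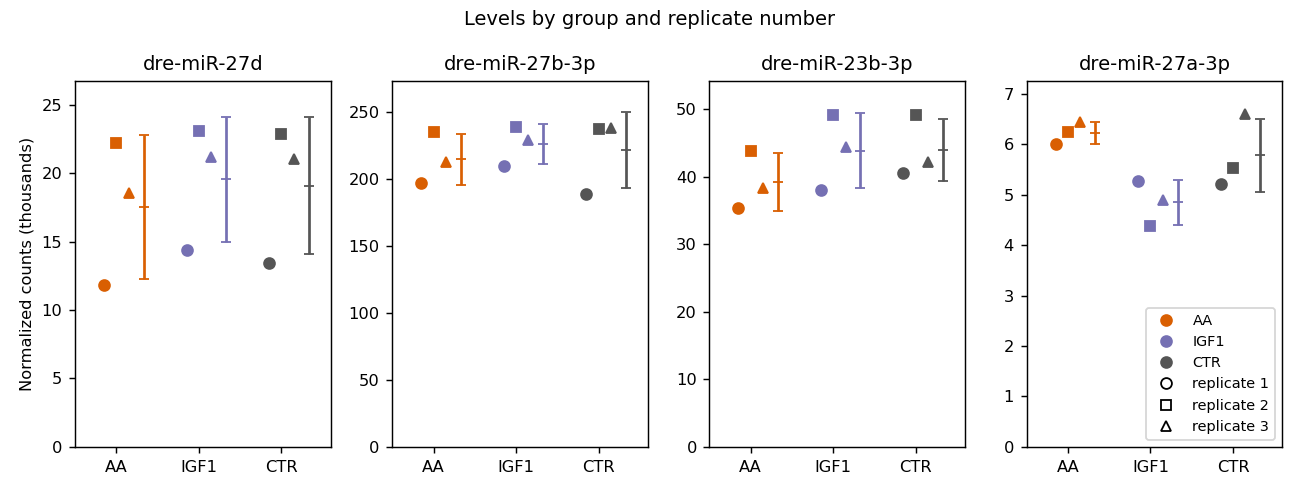
Normalized counts by library, in units of 1000, of dre-miR-27d, dre-miR-27b-3p, dre-miR-23b-3p and dre-miR-27a-3p in AA, IGF1 and CTR, with symbols for the replicate number and the mean ± SD (n = 3) beside each group. Replicate 1 is the lowest library of each group for the first 3, and for dre-miR-27a-3p the AA libraries (6004 to 6447) lie above the IGF1 libraries (4379 to 5266).

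Ratios between the miRNAs that share a transcript in mammals were also computed, as a description. The ratio of dre-miR-27b-3p to dre-miR-23b-3p lay between 4.66 and 5.64 in all libraries, averaging 5.49 ± 0.112 in AA, 5.17 ± 0.322 in IGF1 and 5.04 ± 0.523 in CTR. The ratio of dre-miR-27a-3p to dre-miR-23a-3p was 0.240, 0.241 and 0.248 in AA, 0.204, 0.169 and 0.179 in IGF1, and 0.178, 0.208 and 0.247 in CTR. It was thus higher in every AA library than in every IGF1 library, with CTR spread over both. The ratio of dre-miR-24 to dre-miR-23a-3p ranged from 0.499 to 0.670, and AA (0.570 to 0.622) lay inside the range of CTR (0.499 to 0.670). Relative library depth does not enter these ratios.

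Other miRNAs tied to muscle mass or atrophy were counted beside the cluster. The list held miR-206, miR-133, miR-1 and miR-499, which are enriched in striated muscle, together with miR-29 and miR-182, and it had 55 profiles. It also named miR-208 and miR-486, for which no profile was tested. Between AA and CTR, 14 were called higher and 1 lower in AA, with a median log2 fold change of 0.24. Between AA and IGF1, 14 were called higher and 0 lower in AA (median 0.50), and between IGF1 and CTR 1 was called higher and 0 lower in IGF1 (median -0.21). All 14 higher calls between AA and CTR were muscle-enriched: 8 of 8 miR-133 profiles (median 2.05), 3 of 3 miR-206 (median 2.34), 2 of 2 miR-1 (median 1.48) and 1 of 2 miR-499 (median 1.43). The 38 miR-29 profiles had a median of 0.03 with 0 called higher and 1 lower in AA, and the 2 miR-182 profiles a median of 0.08 with 0 called. Of all 953 profiles, with this list included, 21 were called higher and 1 lower in AA than in CTR. Between AA and IGF1 these counts were 18 and 2, and between IGF1 and CTR they were 1 and 1. The list was chosen with these results known and supports nothing about the cluster. The muscle-specific share was higher in AA than in CTR, as given above, and its part in the values of dre-miR-24b-5p was not tested. Nor was that of the fibroblast or smooth muscle and endothelial markers. As shares of zebrafish counts, without correction for composition, these markers were higher in AA replicate 1 than in AA replicates 2 and 3.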

How the data were processed

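Small RNA libraries were made with TRIzol RNA and the TruSeq small RNA kit and sequenced on an Illumina HiSeq. The authors checked reads with FastQC 0.11.8, trimmed them with Trimmomatic, mapped them with Bowtie2 to mature miRNAs of 13 teleosts from miRBase and deposited raw counts per entry. The submitters' processing notes also name GRCz11. The treatment of reads that match more than 1 entry was not stated in these sources. The deposited normalized counts are a signal that the authors obtained by dividing counts by 1 size factor per library (0.695 to 1.36 here), and the table holds entries averaging 10 counts or more.

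Raw counts were tested with edgeR 4.0.16 under R 4.3.3, by the quasi-likelihood test after TMM scaling, with all 9 libraries and the group as the term. The filter was a mean of 10 counts, and p-values were adjusted over 1769 entries. The standard error of an edgeR log2 fold change was derived as its absolute value divided by the square root of the test's F statistic. The filter and thresholds follow the study. An alternative used DESeq2 1.42.0, the tool named in its methods. Shares and arm ratios were compared by exact permutation tests, with 1 count added to both arms. The sources describe no molecular identifiers, so counting error covers reads and not molecules.

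Named profiles were those holding a zebrafish entry, the highest of each number and arm, and any called with or without the replicate block. Members and lists were chosen with earlier results of these data known.

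The replicate numbers were taken to pair the libraries from the data. Deviations from group means correlated at 0.287 to 0.566 in the 9 library pairs with the same number. In the 18 pairs with different numbers they correlated at -0.484 to 0.151. Deviations within a group sum to 0, so positive values at the same number force lower values at the others, and the ranges are not separate evidence. A blocked value is printed wherever it altered a call. The edgeR fit with the group alone was tested on simulated counts, for AA against CTR. The fit with the replicate block was not tested in this way.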

Additional observations from a re-analysis of the deposited data

How the results depend on the processing

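The alternatives were DESeq2, other composition factors, other filters on low counts, distinct profiles or zebrafish entries alone, a fit of the compared groups alone, the replicate block, a call by adjusted p without a fold threshold, other denominators and pseudocounts, and each library left out. Without composition factors the median log2 fold change of the members was 0.16 between AA and CTR (all profiles 0.18) and 0.17 between AA and IGF1 (all profiles 0.20), so it moved with all profiles. That setting also turned the sign of dre-miR-23a-3p (0.09), dre-miR-23b-3p and ola-miR-23b (0.02 each) between AA and CTR, and of dre-miR-23b-3p, ola-miR-23b and ssa-miR-23b-3p (0.07 each) between AA and IGF1. No other named value larger than its standard error changed sign.

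The count of members called, 0 without the replicate block, was 2 with the replicate block both between AA and CTR and between AA and IGF1, and the pairing changed no other call of a member by this rule. With each library left out it ranged from 0 to 2 in both comparisons, with 2 only without AA replicate 1. In settings added after seeing the data, the block called 2 members between AA and CTR when CTR-1, AA-1, IGF1-1, IGF1-2 or IGF1-3 was left out, and 0 when CTR-2, CTR-3, AA-2 or AA-3 was. Between AA and IGF1 it called 2 without CTR-1, AA-1 or IGF1-1, and 0 without any of the other 6 libraries. DESeq2 with the block called 0. The replicate block as paired differences, also added later, had 1 sign at every number in 9 of 15 comparisons of shares and arm ratios, where 3 pairs allow no p below 0.25. The cause of these differences was not tested. Depth limited the 8 profiles under a mean of 100 counts, most of them 5p arms or rare letters.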
